A study of Mus musculus with 6 samples.

Results

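The Wnt ligands, the frizzled receptors and 2 families of secreted Wnt inhibitors were followed in mouse embryos at the onset of vessel formation. Members were all genes whose single symbol in the platform annotation was a Wnt, a frizzled (Fzd), a secreted frizzled-related protein (Sfrp1 to Sfrp5) or a dickkopf (Dkk1 to Dkk4). This gave 37 genes, represented by 73 probe sets, of 18193 genes with a single symbol on the array. They were 19 Wnt ligands, 10 frizzleds, 4 secreted frizzled-related proteins and 4 dickkopfs. Each gene was read from its brightest probe set, and its other probe sets were compared with it. All samples came from ICR mice at 8.5 days post coitum, with 3 to 4 somites and blood not yet flowing. There were 3 groups of 2 arrays: cells positive for Flk1 (Flk1-positive cells, called the cells beside array values), embryos without Flk1 (Flk1 KO) and wild-type embryos (WT), both embryo groups being the embryo proper. Flk1 is the VEGF receptor encoded by Kdr and marks endothelial cells and their precursors. The study's design text also names Flk1+/GFP embryos as a source, so the genotype of the embryos that gave the cells cannot be told apart from the cell group. The sources used here give neither the way the cells were selected nor the Flk1 allele. Nothing says that arrays of 1 group hold separate animals or pools, so p-values cover the spread between arrays alone, and that spread may be technical.

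Wnts are secreted lipid-modified proteins that bind a frizzled at the cell surface. With the coreceptors Lrp5 or Lrp6 this stabilises beta-catenin, which enters the nucleus and acts with TCF/LEF factors on target genes, while other pairs of ligand and receptor act through planar cell polarity and calcium. Secreted frizzled-related proteins carry a frizzled-like domain and bind Wnts outside the cell, and dickkopfs such as Dkk1, though not the divergent Dkk3, bind the Lrp coreceptors. In the early embryo Wnts are known for the growth of the body axis, the patterning of the neural tube and the making of mesoderm, and in vessels frizzled signalling is known for the growth and barrier of the brain and retinal vasculature.

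Promoter windows of 3 members are shown. Dkk1 and Fzd7 are known targets of beta-catenin in other settings and carried TCF/LEF letters here. Among the members that passed a filter on low signal, Fzd4 was the 1 with both arrays of Flk1-positive cells above both WT arrays, though without a call. Each window holds the 250 bases before the annotated start site, 5′ to 3′ on the gene's strand, from RefSeq on GRCm38.p6. Capitals mark CTTTGAA or CTTTGTT on either strand. The Dkk1 window is chr19:30549497-30549746 on the minus strand and has CTTTGAA and CTTTGTT. The Fzd7 window is chr1:59481897-59482146 on the plus strand, with CTTTGTT on the opposite strand. The Fzd4 window is chr7:89404116-89404365 on the plus strand and has neither.
Dkk1: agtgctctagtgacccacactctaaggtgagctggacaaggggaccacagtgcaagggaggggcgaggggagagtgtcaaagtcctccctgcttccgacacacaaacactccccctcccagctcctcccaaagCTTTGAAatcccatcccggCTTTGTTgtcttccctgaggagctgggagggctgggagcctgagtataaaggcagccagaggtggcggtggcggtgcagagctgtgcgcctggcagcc
Fzd7: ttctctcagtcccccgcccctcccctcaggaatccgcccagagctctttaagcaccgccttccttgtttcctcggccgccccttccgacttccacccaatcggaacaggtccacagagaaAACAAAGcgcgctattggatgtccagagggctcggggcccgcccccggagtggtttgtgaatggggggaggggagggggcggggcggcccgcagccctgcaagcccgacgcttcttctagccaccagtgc
Fzd4: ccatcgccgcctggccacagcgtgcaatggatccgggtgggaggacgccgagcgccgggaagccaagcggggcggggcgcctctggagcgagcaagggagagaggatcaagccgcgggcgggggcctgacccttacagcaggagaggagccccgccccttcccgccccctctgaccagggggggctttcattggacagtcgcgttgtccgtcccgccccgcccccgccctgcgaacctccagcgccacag
Windows were found for 25 of the 37 members (28 windows). The TCF/LEF letters were present in 2 of these 28 windows (7.14%), beside 9.17% of all 32851 promoter windows. Both were among the 15 windows of members called lower than in WT (13.3%), most of which had none. The 13 windows of other members had 0. Letters bound by ETS factors, a family known for endothelial genes, were searched as CCGGAA and AGGAAG on both strands and were in 4 of the 28 (14.3%: Fzd7, Fzd10, Wnt5b and Wnt11), beside 38.2% of all windows. The printed windows had 60.8% (Dkk1), 65.2% (Fzd7) and 72.8% (Fzd4) GC, beside a median of 52.4% over all windows. The part of GC in these shares was not tested. A match is a run of letters, not a shown binding site. No member's window was read for binding here, since the arrays measure RNA.

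The deposited values are a linear signal scaled to a trimmed mean of 500 on every array. Differences below are on the log2(signal + 21.61) scale with the standard error (SE) of the fit, for 2 arrays in each group. Adjusted p-values are limma's, by the Benjamini-Hochberg method across the 33778 tested probe sets, and a gene rose or fell where its value was under 0.05. The background level, from olfactory and vomeronasal receptor probe sets, was a signal of 49.1 to 78.2 on the single arrays, and 51.6% to 59.7% of probe sets lay above it. Kdr itself, from its only named probe set, read 3309 and 3328 in the cells, 544 and 546 in WT and 29.5 and 63.8 in Flk1 KO embryos. The place of its probes relative to the mutation is unknown. Arrays correlated at 0.980 to 0.985 within groups, at 0.977 to 0.983 between KO and WT, and at 0.899 to 0.917 between Flk1-positive cells and embryos. Of the cell type markers, 12 of 12 endothelial and 8 of 8 primitive blood genes rose in Flk1-positive cells against WT, with endothelial summed signals of 50456 to 50584 against 3486 to 3540. All 9 tested neuroectoderm genes fell (summed signals of 421 to 550 against 11255 to 11599), as did 6 of 7 presomitic and tail bud, 5 of 6 somite, 10 of 10 gut and surface epithelium, 8 of 8 heart muscle, 6 of 6 yolk sac endoderm and 2 of 6 mesenchyme genes. Sox1, Otx2, Pax6, Hesx1, En1, Zic1 and Neurog1 were not above background in Flk1-positive cells.

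Flk1-positive cells were low in most of the Wnt system that the embryo expressed. Among the 33 members that passed the filter on low signal, 20 fell against WT embryos (60.6%) and 0 rose, while 18% of all 14949 genes tested fell and 12.5% rose. The median difference of the 33 was -1.16, beside -0.09 over all genes tested, and was -1.155 with the 9 members that were at background in the lower group put at their bound (0 for 3 with no bound). By family, 8 of 17 Wnts, 7 of 10 frizzleds, 3 of 4 secreted frizzled-related proteins and 2 of 2 tested dickkopfs fell. Fzd4 is a receptor for Wnts and for the vascular ligand norrin. It was the 1 member of the 33 (3.03%, beside 30.5% of all genes) with both arrays of the cells above both WT arrays. Both arrays of Flk1-positive cells lay below both WT arrays for 25 of the 33 (75.8%, beside 42.1% of all genes). Of the 33, Wnt3a, Wnt8b and Wnt9a had a mean under the filter level of 21.7 in Flk1-positive cells but not in the embryos, so their passing rested on the embryo arrays. The embryo groups hold all tissues at once, so a lower value in Flk1-positive cells is set against a mixture, and fewer cells of a type and less RNA per cell cannot be told apart. The falls went with the lower neural, mesodermal and epithelial markers given above, whose part in them was not tested. Without WT replicate 1 or WT replicate 2, 16 members fell, and 8.54% and 8.75% of all genes. Without Flk1-positive replicate 1 or 2 the counts were 19 and 18, and 11.6% and 10.7% of all genes.

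**Figure D1:**
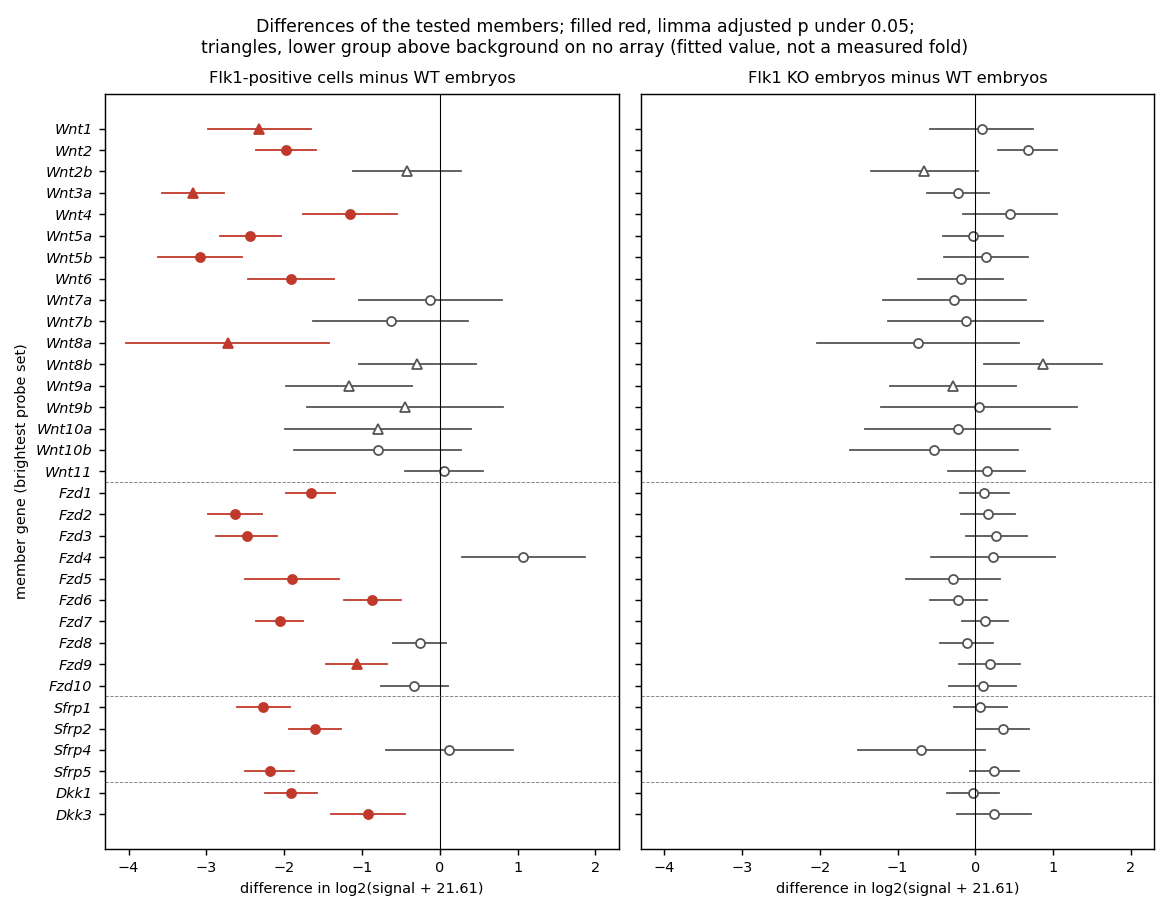
Differences of the 33 tested members on the log2(signal + 21.61) scale, each as a point with its 95% confidence interval, for Flk1-positive cells minus WT embryos and Flk1 KO minus WT embryos. Triangles mark members above background on no array of the lower group, whose fitted value is not a measured fold. In the first comparison 20 members fell, 9 are triangles and Fzd4 is at 1.07, and in the second 3 are triangles and 0 passed the test.

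Wnt3a, Wnt1 and Wnt8a, ligands of the tail bud, neural tube and posterior embryo, were at background in Flk1-positive cells. Wnt3a is needed for the tail bud and its mesoderm and read 19.9 and 16.3 in the cells, 377 and 298 in WT and 292 and 277 in KO embryos. It was not above background on either Flk1-positive array and was at least 4.10-fold lower than in WT (adjusted p = 0.000433). Wnt1, known for the midbrain and hindbrain, read 24.9 and 27.4 in the cells, 238 and 198 in WT and 305 and 174 in KO embryos. Its arrays in Flk1-positive cells were also at background, at least 2.74-fold under WT (adjusted p = 0.00309). For Wnt8a, a ligand of the posterior embryo, signals were 9.8 and 38.9 in the cells, 282 and 253 in WT, and 86.0 and 258 in KO embryos. The Wnt8a value was at least 3.32-fold lower than WT (adjusted p = 0.0162), and the KO arrays stood apart from each other. That call was lost without Flk1-positive replicate 1 (adjusted p = 0.0645), WT replicate 1 (0.0829) or WT replicate 2 (0.0745), in a range of 0.00062 to 0.0829 over all settings tried.

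Wnt5a and Wnt5b were well above background in the embryos and low in the cells. Wnt5a, a ligand of axis elongation that acts largely apart from beta-catenin, read 160.2 and 158 in the cells, 928 and 988 in WT and 1049 and 834 in KO embryos. Wnt5a fell by 2.44 ± 0.16 (SE, log2, adjusted p = 0.00059), with no overlap between cells and embryos. Its close relative Wnt5b read 35.8 and 54.6 in the cells, 625 and 463 in WT and 566 and 625 in KO embryos. One of the Flk1-positive arrays was just above its own background, and Wnt5b fell by 3.08 ± 0.22 (adjusted p = 0.000713). Wnt11, another polarity ligand known in the heart, gave no call: it read 142 and 191 in the cells, 179.9 and 138 in WT and 186 and 168 in KO embryos. Its groups overlapped, and the difference from WT was 0.05 with a 95% interval of -0.44 to 0.55.

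Wnt2, Wnt6 and Wnt4 stayed above background in Flk1-positive cells at a lower level than in the embryos. Wnt2, a ligand of the heart field and of placental vessels, read 85.2 and 103 in the cells, 424 and 440.2 in WT and 758 and 647 in KO embryos. It fell by 1.98 ± 0.15 against WT (adjusted p = 0.000906), and the KO arrays were the highest of all. Wnt6, known in the surface ectoderm, read 165 and 116 in the cells, 675 and 497 in WT and 502 and 508 in KO embryos. Wnt6 fell by 1.91 ± 0.22 (adjusted p = 0.00318), with the arrays of both embryo groups overlapping each other. For Wnt4, a ligand known from kidney and gonad, signals were 118 and 79.5 in the cells, 267 and 221 in WT and 399 and 286 in KO embryos. Wnt4 fell by 1.155 ± 0.24 (adjusted p = 0.0217), a call lost without Flk1-positive replicate 2 (0.0882), WT replicate 1 (0.111) or WT replicate 2 (0.0713). Over all settings tried its adjusted p ran from 0.00283 to 0.111. The second tested probe set of Wnt4 gave no call (-0.43 ± 0.22).

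The other 9 tested ligands gave no call against WT. Wnt9a, whose adjusted p was nearest the threshold among them, was at 17.9 and 2.5 in the cells, 61.2 and 36.1 in WT and 44.9 and 26.9 in KO embryos. It had 1 array above background in all, a WT array, so no fold is given, and it missed the threshold (adjusted p = 0.0503), with a range of 0.0097 to 0.204 over the settings tried. Wnt10b (-0.80 ± 0.43) and Wnt10a (at background in the cells, at least 1.035-fold under WT) had no call either. Wnt10b read 16.9 and 69.6 in the cells, 103 and 63.6 in WT and 54.4 and 45.7 in KO embryos, and Wnt10a read 58.2 and 12.1, 77.8 and 60.1, and 35.8 and 81.3 in the same order. Wnt9b was as uneven, at 64.2 and 14.5 in the cells, 77.4 and 36.8 in WT and 39.9 and 78.2 in KO embryos. These 3 ligands had Flk1-positive arrays more than 1 log2 unit apart, which leaves wide intervals. Without Flk1-positive replicate 2, Wnt10b was lower (-1.42, adjusted p = 0.038, beside 0.038 to 0.717 over all settings). Wnt7b, which with Wnt7a guides brain vessels, read 129.8 and 159 in the cells, 234 and 235 in WT and 338 and 132 in KO embryos. The KO arrays were on both sides of WT, and the difference of Flk1-positive cells from WT was -0.63 ± 0.40. Probe sets of Wnt7a disagreed, and the brightest gave -0.12 ± 0.37. Another, at 4.9 and 3.4 in Flk1-positive cells against 48.4 and 23.9 in WT, was lower (adjusted p = 0.0323). No array of either group was above background there, so no fold is given. In KO embryos this probe set read 107 and 69.1, and the cells were at least 1.24-fold lower than KO (adjusted p = 0.00436). Between KO and WT it gave no call (adjusted p = 0.45). Wnt3 and Wnt16 were below the filter and above background on no array. Wnt16 read 23.6 and 36.7 in the cells, 4.2 and 9.4 in WT and 3.8 and 3.1 in KO embryos.

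All 10 frizzleds were tested, and 7 fell in Flk1-positive cells. Fzd2 read 747 and 681 in the cells, 4336 and 4743 in WT and 5367 and 4827 in KO embryos. It fell by 2.63 ± 0.14 (adjusted p = 0.00045), and every embryo array was above both arrays of the cells. Fzd3, known for neural tube closure and axon guidance, read 314 and 379 in the cells, 1872 and 2183 in WT and 2480 and 2399 in KO embryos. Fzd3 fell by 2.48 ± 0.16 (adjusted p = 0.000576), again without overlap. Fzd7, a receptor of gastrulation mesoderm and one of the promoters printed above, read 752 and 737 in the cells, 3114 and 3226 in WT and 3474 and 3429 in KO embryos. Fzd7 fell by 2.06 ± 0.12 (adjusted p = 0.000515). Each of these receptors stayed far above background in Flk1-positive cells, so their RNA was lower there but still detected.

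Fzd5, known for the eye field, read 240.2 and 151 in the cells, 753 and 789 in WT and 553 and 712 in KO embryos, and fell by 1.90 ± 0.24 (adjusted p = 0.00444). Its other probe set gave -0.78 ± 0.25 with no call. Fzd1, a beta-catenin receptor, read 352 and 340.0 in the cells, 1138 and 1138 in WT and 1180 and 1289 in KO embryos, and fell by 1.66 ± 0.12 (adjusted p = 0.000859). The dimmer Fzd9 read 50.1 and 38.3 in the cells, 118 and 114 in WT and 147 and 123 in KO embryos. It was not above background in Flk1-positive cells and was at least 1.58-fold lower than in WT (adjusted p = 0.00699). Fzd6, which acts with Fzd3 in tissue polarity, read 302 and 313 in the cells, 597 and 560.0 in WT and 448 and 542 in KO embryos. Fzd6 fell by 0.87 ± 0.15 (adjusted p = 0.011), and its 2 other probe sets gave no call. This call was lost without any single array of either group: 0.0597 and 0.0524 without Flk1-positive replicates 1 and 2, and 0.0704 and 0.0565 without WT replicates 1 and 2. With the median over its probe sets, the difference was -0.18 (adjusted p = 0.704, the top of a range from 0.001).

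Fzd4 was the frizzled with a difference above 0. Its signals were 1196 and 964 in the cells, 436 and 572 in WT and 795 and 433 in KO embryos. Both Flk1-positive arrays were above all embryo arrays, and the KO arrays were far apart from each other. The difference from WT was 1.07 ± 0.32, with a 95% interval of 0.28 to 1.86 and an adjusted p of 0.0597, just outside the threshold. A second Fzd4 probe set read 708 and 664 in the cells, 489 and 463 in WT and 452 and 503 in KO embryos and was higher (0.51 ± 0.13, adjusted p = 0.0413, where 11.6% of all probe sets were higher). The remaining probe set, near background, gave 0.18 ± 0.23 with no call. Over the settings tried, the adjusted p of the brightest ran from 0.00651 to 0.228, and it passed in 8 of 16 refitted settings, among them those without Flk1 KO replicate 1 (0.0299) or 2 (0.0295). Fzd8 and Fzd10 gave no call, with differences from WT of -0.26 ± 0.14 and -0.33 ± 0.17. Their signals in Flk1-positive cells were 403 and 380 for Fzd8 and 336 and 379 for Fzd10, below the WT signals of 442 and 505, and 516 and 399. The dimmer Fzd8 probe set was lower (-0.84 ± 0.21, adjusted p = 0.0379).

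**Figure D2:**
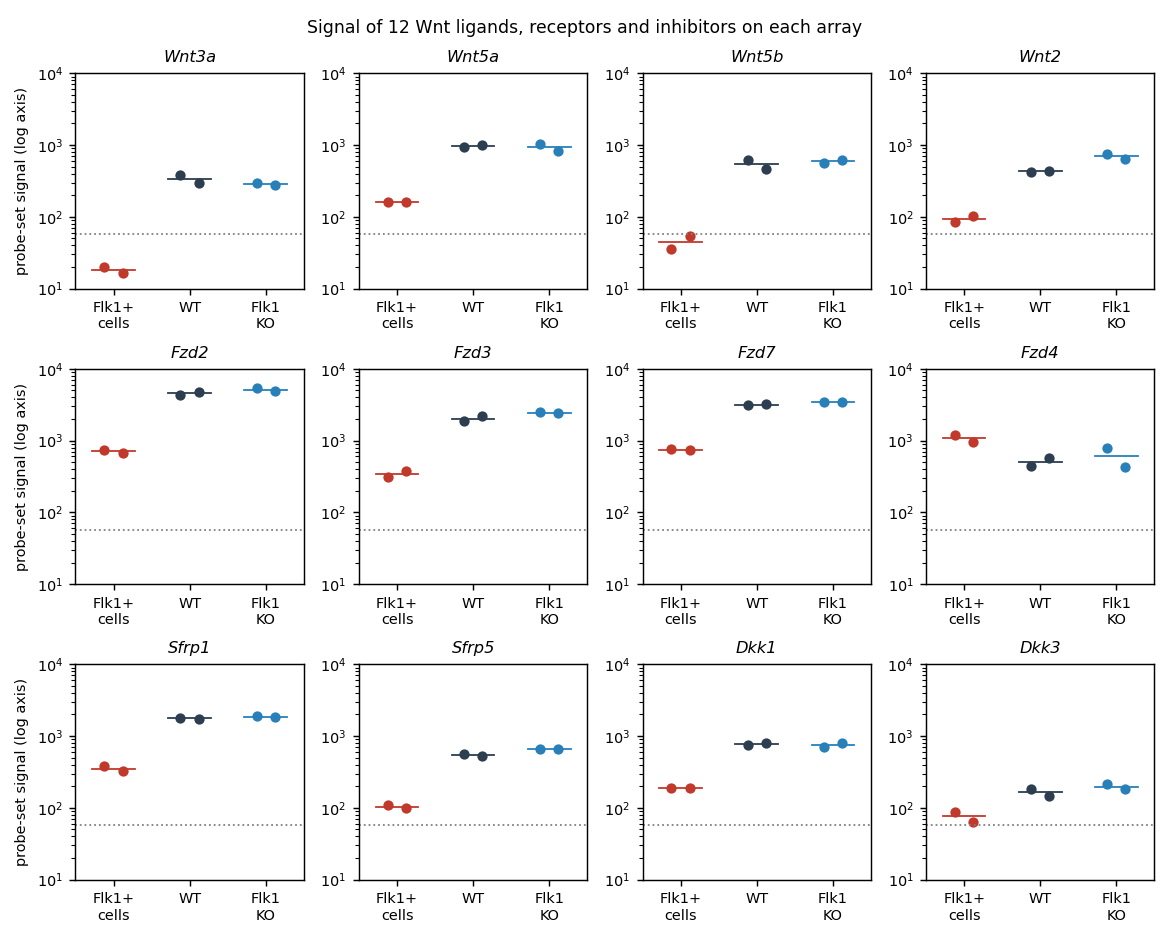
Signal on each of the 6 arrays for 12 members, on a log axis, with points for single arrays by group and a dotted line at the mean background signal of 57.4. For Wnt3a both arrays of Flk1-positive cells lie under the line, for Fzd2, Fzd3 and Fzd7 they lie above it and below every embryo array, and for Fzd4 they lie above every embryo array.

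Among the secreted inhibitors, 3 of 4 Sfrps and both tested dickkopfs fell. Sfrp1 read 378 and 325 in the cells, 1808 and 1743 in WT and 1896 and 1817 in KO embryos. It fell by 2.27 ± 0.14 (adjusted p = 0.000541), and its 4 other probe sets were lower too. Sfrp5, a close relative of Sfrp1, read 109 and 99.3 in the cells, 564 and 536 in WT and 657 and 653 in KO embryos. Sfrp5 fell by 2.19 ± 0.12 (adjusted p = 0.000491), with no overlap. Sfrp2, which with Sfrp1 and Sfrp5 is needed for axis elongation, read 259 and 281 in the cells, 833 and 895 in WT and 1172 and 1056 in KO embryos. Sfrp2 fell by 1.60 ± 0.13 (adjusted p = 0.00118). Sfrp4 read 226 and 151 in the cells, 208 and 136 in WT and 126 and 71.7 in KO embryos. Its cells and WT arrays overlapped (0.12 ± 0.33, no call), while both KO arrays were the lowest.

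Dkk1, a Wnt inhibitor that binds Lrp coreceptors and is needed for head formation, read 187 and 189.9 in the cells, 742 and 799 in WT and 707 and 806 in KO embryos. It fell by 1.91 ± 0.13 (adjusted p = 0.00072), and its other probe set was lower as well. Dkk3, a divergent dickkopf, read 88.0 and 64.5 in the cells, 182 and 146 in WT and 213 and 182 in KO embryos. Dkk3 fell by 0.93 ± 0.19 (adjusted p = 0.0202), a call lost without Flk1-positive replicate 2 (0.0911), WT replicate 1 (0.107) or WT replicate 2 (0.0566), in a range from 0.00375 to 0.107. Dkk2 and Dkk4 were below the filter and above background on no array, although Dkk4 read 3.8 and 33.4 on the KO arrays. Across all families, 14 of the 20 members that fell had other tested probe sets. Of these 24 other probe sets 18 were lower, and for 9 members all of them were. Their genes were chosen by a call on the same arrays, so a high share is no separate evidence. The share of all probe sets lower, without such a choice, was 14.4%.

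Loss of Flk1 left the Wnt system of the embryo without a detected change. Against WT embryos 0 of 33 members rose and 0 fell in KO embryos by limma, where 0% of all genes tested rose and 0.14% (21 genes) fell. That count of 21 was 0 without any single array of the 6. At an unadjusted p under 0.05 there were 3 members (9.09%), Wnt2, Wnt8b and Sfrp2, beside 6.29% of all genes. Both KO arrays were above both WT arrays for 11 members (33.3%, beside 19.1% of all genes) and below them for 6 (18.2%, beside 18.2%). The median difference was 0.06, and the 95% intervals had a median half-width of 0.50 and at most 1.30. Wnt2 had the smallest adjusted p (0.356), with a difference of 0.67 ± 0.15 and a 95% interval of 0.29 to 1.05. The widest fitted differences were Wnt8b, Wnt8a and Sfrp4. Wnt8b, a forebrain ligand, read 62.1 and 65.5 in KO and 20.5 and 30.2 in WT embryos, where it was not above background. It gave no call (adjusted p = 0.531). Wnt8a differed by -0.74 ± 0.52 and Sfrp4 by -0.69 ± 0.33, both without a call. The Wnt8a value was -1.42 without Flk1 KO replicate 2 and -0.05 without Flk1 KO replicate 1. For the bright receptors the intervals were narrow, at -0.18 to 0.51 for Fzd2 and -0.18 to 0.42 for Fzd7, so a change of 1 log2 unit lies outside them. In the same KO embryos 5 of 12 endothelial markers fell, and the summed heart muscle signal was 26245 to 39668 against 18960 to 19649 in WT with no marker called, and the part of these in the members' values was not tested.

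Against KO embryos, Flk1-positive cells had 21 of 33 members lower (63.6%) and 0 higher, beside 19.5% and 13.2% of all genes. This comparison shares the arrays of Flk1-positive cells with the one against WT and is not a separate measurement of them. Values are given side by side. The fitted difference of Wnt5b, near background in the cells, was -3.22 ± 0.22 from KO and -3.08 from WT. By its other probe set, at background in the cells, Wnt5b was at least 5.18-fold lower than in KO. For Fzd2 it was -2.80 ± 0.14 from KO and -2.63 from WT, and for Fzd3 -2.75 ± 0.16 and -2.48. Wnt2 differed by -2.65 ± 0.15 from KO, whose arrays were highest, and by -1.98 from WT. For Sfrp5 the values were -2.43 ± 0.12 and -2.19, and for Dkk1 -1.89 ± 0.13 and -1.91. Wnt3a was at least 3.52-fold lower than in KO embryos, Wnt1 at least 2.90-fold and Fzd9 at least 1.79-fold. Wnt8b, at 29.9 and 6.7 in the cells, was lower against KO (adjusted p = 0.0384). It was at background in Flk1-positive cells and in WT, and its KO signals were too near background for a fold to be given. Its passing of the filter rested on the embryo arrays, and with no filter the call was lost (adjusted p = 0.0551). So it was with only the 2 groups compared (0.0664), the added constant at the 10th percentile (0.0742) or the replicate number in the model (0.0597). Its call was lost without either KO array (0.124 without Flk1 KO replicate 1 and 0.134 without 2), without either WT array (0.0664 and 0.0672) and without Flk1-positive replicate 2 (0.0819). Wnt8a was at least 1.99-fold lower (adjusted p = 0.0391). It lost its call with no filter (0.0551), only the 2 groups compared (0.0735) or the added constant at the 10th percentile (0.0575). The call was also lost without Flk1-positive replicate 1, Flk1 KO replicate 2 or either WT array. With single arrays left out, the fitted Wnt8a difference ran from -2.68 to -1.29. Fzd6 (-0.65 ± 0.15, adjusted p = 0.0254) lost its call without any single array other than Flk1 KO replicate 1, with values from 0.0555 to 0.111. The 3 widest fitted differences without a call were Wnt9a (at background in both groups), Fzd4 (0.85 ± 0.32) and Sfrp4 (0.82 ± 0.33). Fzd4 passed without Flk1 KO replicate 1 (1.27, adjusted p = 0.0372).

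The RefSeq gene table holds 4 pairs of members that are direct neighbours, all of them Wnts. Wnt3a was at least 4.10-fold lower than in WT, and its neighbour Wnt9a gave no call. Wnt6 fell by 1.91 and Wnt10a gave no call. Wnt1 was at least 2.74-fold lower and Wnt10b gave no call, and Wnt9b (no call) lies beside Wnt3, which was not tested. The differences between neighbours were not tested, and the uncalled partners were near background.

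The rest of the pathway was described by 5 lists of other genes, with 95 on the array and 92 tested. In Flk1-positive cells against WT embryos 10 rose (10.9%, beside 12.5% of all genes) and 44 fell (47.8%, beside 18%). The median difference was -0.59, and -0.36 with the 16 genes at background in the lower group put at their bound (0 for 6 with no bound). Target and feedback genes had the lowest median of the 5 lists (-2.19): 14 of 19 fell (73.7%) and 2 rose. Cdx1, a posterior Hox regulator, was at least 17.1-fold lower and Sp8 at least 8.68-fold lower. Tnfrsf19 differed by -3.89 ± 0.19, and Sp5, a transcription factor, by -4.13 ± 0.56 with 1 array of the cells above background. Myc rose by 1.23 ± 0.12 and Cd44 by 1.30 ± 0.20, the second with an adjusted p of 0.0547 without WT replicate 2, which leaves 1 gene of this class higher. Tbx6, Msgn1, Cdx2 and Fgf8 of this list also stand among the tail bud markers, which fell as given above, and the part of these tissues in the class was not tested.

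At the membrane, 1 of 13 coreceptors rose (7.69%) and 4 fell (30.8%), beside 12.5% and 18% of all genes. Adgra2, which with Reck carries the Wnt7a and Wnt7b signal in brain endothelium, rose by 2.15 ± 0.13 (adjusted p = 0.000563). Ror2 and Ror1, receptors of Wnt5a, fell (-2.61 ± 0.18 and -1.80 ± 0.21), as did the glypicans Gpc4 and Gpc3 (-1.57 ± 0.20 and -1.56 ± 0.13). Without Flk1 KO replicate 1 or 2, 2 coreceptors were higher (15.4%, beside 13% and 13.1% of all genes). Among 18 other modulators of the pathway, not all of them secreted, 3 rose (16.7%) and 9 fell (50%). Sost, an inhibitor that binds Lrp coreceptors, rose by 2.12 ± 0.32, Apcdd1 by 0.99 ± 0.12 and Tmem88 by 0.74 ± 0.12, the last with adjusted p-values of 0.0537 to 0.0751 without any single Flk1-positive or WT array. Shisa2 fell (-3.78 ± 0.21), and so did Frzb, a relative of the Sfrps (-2.93 ± 0.35). Cer1 was at least 2.498-fold lower, and Porcn, the enzyme that adds the lipid to Wnts, at least 3.71-fold lower.

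The list of the beta-catenin route also holds the membrane ligases Rnf43 and Znrf3. In it 8 of 23 genes were lower (34.8%) and 0 higher by limma, beside 18% and 12.5% of all genes. Without WT replicate 1 or 2, 2 of the 23 were lower (8.7%, beside 8.54% and 8.75% of all genes), so the share was then that of all genes. Without Flk1-positive replicate 1 or 2 it was 4 (17.4%, beside 11.6% and 10.7%). Bcl9, a beta-catenin cofactor, fell by 1.46 ± 0.15, and the scaffold Dvl2 fell by 1.02 ± 0.14. Rnf43, a ligase that removes frizzleds, was lower but not above background in WT, so no fold is given, with adjusted p-values of 0.0839 and 0.0604 without WT replicate 1 and 2. Pygo1 (at least 1.01-fold lower) lost its call without Flk1-positive replicate 2 or any WT or KO array. The Pygo1 call was also lost with no filter (adjusted p = 0.0609), only the 2 groups compared (0.0578) or quantile normalization (0.0507). So it was with the added constant at the 10th percentile (0.0668) or the replicate number in the model (0.0636). In the planar polarity and calcium list 4 of 19 rose (21.1%, beside 12.5% of all genes) and 9 fell (47.4%, beside 18%). Nfatc1, a calcium-regulated factor of the endocardium, rose by 2.15 ± 0.18 and the kinase Camk2d 2.83-fold. Daam1 (0.68 ± 0.16) and Rhoa (0.49 ± 0.12) rose, and both calls were lost without any single Flk1-positive or WT array (adjusted p-values of 0.0625 to 0.141 and 0.13 to 0.154), which left 2 genes higher (10.5%, beside 7.11% to 7.46% of all genes). The polarity cadherins Celsr1 and Celsr2 fell (-2.55 ± 0.14 and -1.51 ± 0.22), and Celsr3 and Dact2 were at least 2.19-fold and 2.46-fold lower. Against KO embryos 9 of the 92 rose (9.78%, beside 13.2% of all genes) and 48 fell (52.2%, beside 19.5%), with Shisa3 at least 1.89-fold lower, Vangl2 lower (-1.49 ± 0.19) and Znrf3 lower (-1.004 ± 0.16). In KO against WT embryos limma called 0 of the 92 in either direction.

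**Figure D3:**
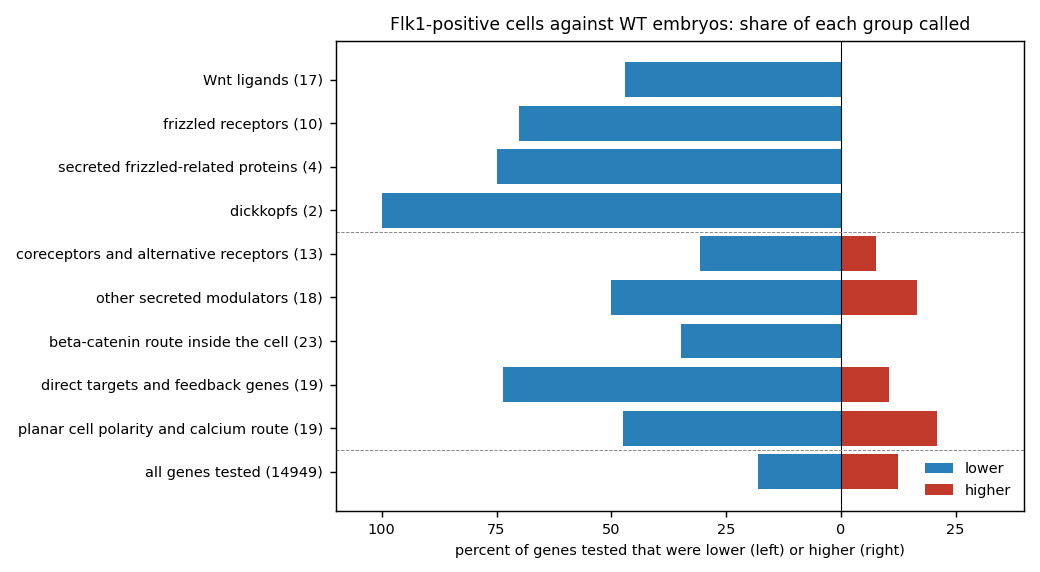
Percent of tested genes called lower or higher when Flk1-positive cells were set against WT embryos (limma, adjusted p under 0.05), for each family of members, each list of other pathway genes and all genes tested. The share lower was 70% for frizzleds and 47.1% for Wnts, beside 18% of all genes, and no member was higher. That of the beta-catenin route was 34.8%, and 8.7% without either WT array, beside 8.54% and 8.75% of all genes.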

How the data were processed

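Per the labels' protocols, total RNA (RNeasy Micro) was biotin-labelled for Affymetrix arrays. Deposited values are linear probe-set signal, scaled to a trimmed mean of 500 (2% left out at each end) with a floor of 1 on all 6 arrays. The sources used here do not name the program that made the signal, and the study's design text names GeneSpring. Of 45101 probe sets, 34958 had 1 gene symbol, 932 several and 9211 none. All 37 members were found by gene ID in a RefSeq gene table (GRCm38.p6).

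From the deposited signal, log2(signal + 21.61) was computed, where 21.61 is the 25th percentile of all values. After 64 control probe sets were left out, 33778 probe sets with a mean log2 value at or above the 25th percentile entered the test (14949 genes by their brightest probe set). A model with group alone was fitted, on all 6 arrays together, in limma 3.58.1 under R 4.3.3 (two-sided test, Benjamini-Hochberg, threshold 0.05, with 3 residual degrees of freedom and 2.49 from the prior), so that 3 groups of 2 share 1 spread. The fit was tested on simulated data. Background, set per array, was the 95th percentile of 80 probe sets of olfactory and vomeronasal receptors. Where no array of the dimmer group was above it, the fold is a lower bound ("at least"): the brighter mean against the mean of, per array, the higher of background and the signal. This bound allows for background alone, not for the spread between arrays, and is no confidence limit. The number of arrays limits the precision. Figures used matplotlib 3.10.9 in Python 3.11.15.

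Members, gene lists and the rule for named genes were chosen with earlier results of these data known. The rule names every member called, those with arrays over 1 log2 unit apart within a group, the 3 widest differences without a call per comparison, and up to 4 other pathway genes per list and direction. Genes listed but not on the array under that symbol (T, Tcf7, Kremen2 and Prickle3) were not analysed here.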

Additional observations from a re-analysis of the deposited data

How the results depend on the processing

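Of the 20 members lower against WT, 16 kept the call under every setting tried, and of the 21 lower against KO, 18 did. The exceptions were Dkk3, Fzd6, Wnt4 and Wnt8a, and Fzd6, Wnt8a and Wnt8b. Leaving out single arrays gave 16 to 21 members lower against WT and 18 to 20 against KO, and 0 to 1 higher in each. Over the other settings the lower counts were 18 to 22 and 18 to 22. The count higher against WT was 1 in place of 0 when any probe set of the gene counted, with the filter at the 50th percentile, an intensity trend with a robust prior, median centring, the probe-set median per gene, a pseudocount at the median or only the 2 groups compared (Fzd4), and with no filter (Wnt16). Against KO it was 1 with any probe set, the trend, the probe-set median or the median pseudocount (Fzd4), with no filter (Wnt16) and with the replicate block (Sfrp4). The cause was not tested. KO against WT gave 0 members in both directions under every setting. No member changed sign of a call.

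Same-numbered arrays deviated together by correlations of 0.0080 to 0.0290. No shared effect of the numbers was thus detected, which cannot show whether they pair the samples. The replicate block gave 21 members lower against WT and 21 against KO. Restricting calls to members with both arrays of the brighter group above background, chosen after seeing the data, left 20 and 21. Dim members have only bounds in Flk1-positive cells: 13 of the 37 had no array above background there, 6 in KO and 5 in WT embryos.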
